A study of Homo sapiens with 15 samples.

Results

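Cytosolic ribosomal protein genes encode the protein part of the ribosome that translates nuclear mRNAs. They were taken from the count table by symbol: RPL or RPS with a number and an optional A, X or L, together with RPLP0, RPLP1, RPLP2, RPSA and FAU, and without RPS6 kinases, the Y-linked RPS4 copies and pseudogenes. This rule found 87 of the 23368 genes, 53 of the large subunit and 34 of the small subunit. The rule itself uses symbols only, but the members and comparison lists were chosen with earlier results of these data known. The RNA came from 3 single-cell clones of human breast cancer lines, in which a FLAG-tagged RBM47 transgene is switched on by doxycycline. WT6 and WT10 carry wild type RBM47, an RNA-binding protein, and MUT3 carries the mutant RBM47-I281fs. Every clone gave 5 libraries, 1 without doxycycline and 1 each with 1, 2.5, 5 and 25 ng/ml of the drug. The labels give MDA231 as the cell line of all 3 clones, whereas the study's methods derive WT6 from the brain-metastatic BrM2 derivative of CN34 and the other clones from that of MDA231. A clone, its parental line and its transgene therefore cannot be told apart, and no condition has a replicate.

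In each ribosome the large subunit joins amino acids and the small subunit reads the mRNA, and most of the proteins are present as 1 copy per particle. The mRNAs of these proteins are short and abundant, and many begin with a C followed by a tract of pyrimidines (the 5′ terminal oligopyrimidine, or TOP, motif), through which growth signals set their translation together. Several members have a paralog with an L in its symbol, and RPS27A and FAU are made as fusions to ubiquitin or to a ubiquitin-like protein.

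Each library held between 14955172 and 44771871 reads on genes. Values are normalized counts, which are reads divided by the DESeq size factor of the library, and 3 reads corresponded to between 1.19 and 4.09 of them. RBM47 rose from 258 normalized counts in untreated WT6 cells to 3137, 8094, 3966 and 10425 at the rising doses, so the library at 5 ng/ml held less than the one at 2.5 ng/ml. It rose from 168 to 19877 in WT10 cells and from 73.8 to 22084 in MUT3 cells. The mesenchymal marker VIM was at or above 50755 in every library, CD44 at or above 7100, EGFR at or above 1484 and the epithelial keratin KRT18 at or above 8663. In WT6 cells EGFR had 5971, 5720, 5342, 1807 and 1484 normalized counts in order of dose and KRT18 10240, 10036, 10846, 17114 and 24036, so both shifted in the libraries at 5 and 25 ng/ml, which also carried the rise in ribosomal protein mRNAs, and their part in it was not tested. ESR1 and PGR stayed at or below 23.8, and ERBB2 lay between 1018 and 1584. The leukocyte marker PTPRC was at or below 6.18 and the endothelial marker PECAM1 at or below 9.19, while the liver gene ALB reached 53.0.

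The annotated starts of the members carried the pyrimidine tract. A C at the first base followed by at least 4 bases that are C or T was found, on the strand of the gene, at the main transcript of 60 of the 86 members with an annotation (69.8%), and at 597 of the 11596 other coding genes tested (5.15%). The main transcript was the one that GENCODE marks as the reference for the gene. A run of at least 8 such bases that begins with C lay within 15 bases on either side of the start in 65 of 86 members (75.6%) and in 10.7% of the other coding genes. The starts of members on which the results turn are shown here, with 15 bases before the start and 15 from it, 5′ to 3′ on hg19, and with the longest pyrimidine run that begins with C in capitals.
RPS29, chr14:50053084-50053113, minus strand: tgcgtgggccagCTTCTTCCTTTTacctcg
RPL38, chr17:72199802-72199831, plus strand: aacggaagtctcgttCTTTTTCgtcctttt
RPS28, chr19:8386365-8386394, plus strand: tccccgaagcacgtgaCTCCTCTCCgccag
RPL13, chr16:89627075-89627104, plus strand: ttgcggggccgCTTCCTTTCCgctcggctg
RPL29, chr3:52029897-52029926, minus strand: caccgcagCCCCTTTCTCTTCCggttctag
RPLP0, chr12:120638900-120638929, minus strand: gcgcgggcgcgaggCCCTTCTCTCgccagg
RPL3, chr22:39715614-39715643, minus strand: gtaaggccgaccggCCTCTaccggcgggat
RPL22, chr1:6259641-6259670, minus strand: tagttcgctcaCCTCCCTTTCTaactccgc
RPL22L1, chr3:170587970-170587999, minus strand: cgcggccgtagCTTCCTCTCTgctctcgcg
RPS27, chr1:153963223-153963252, plus strand: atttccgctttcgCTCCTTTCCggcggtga
RPS27L, chr15:63449662-63449691, minus strand: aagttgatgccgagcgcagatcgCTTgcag
RPL7L1, chr6:42847339-42847368, plus strand: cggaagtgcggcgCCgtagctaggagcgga
The first 3 were among the members with large rises in WT6 cells, RPL13 and RPL29 differed between the wild type clones, and RPL3 and RPL7L1 fell in 1 clone each. The paralogs RPS27L and RPL7L1 had no run longer than 3 bases in the window, whereas RPL22L1 and both of the partners RPL22 and RPS27 had one.

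Levels differed widely among the members even per length. Per kilobase of main transcript, the highest on average over the 15 libraries was RPS18, a small subunit protein, with a median of 43797 normalized counts and a range of 38256 to 76873. RPS29, of the small subunit, had a median of 32470 (24997 to 112057). The large subunit proteins RPL8 and RPL19 had medians of 35567 (24891 to 54676) and 31209 (26390 to 65327). RPS21 followed with 27163 (22576 to 79790). The ranges of these 5 overlapped throughout, so their order was not set apart from the spread over the libraries. Per kilobase of coding sequence RPS29 came first, ahead of RPL37A, RPS19, RPS18 and RPL8. Some annotated main transcripts are long for this family, such as 7573 bases for RPL37, 7136 for RPL14 and 6110 for RPS27L, which lowers a level per kilobase of transcript.

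At the other end, 5 members did not reach a mean of 10 normalized counts in each clone and were not tested, which left 82. Among these RPL21 had 4 reads in total, although it encodes a core protein of the large subunit. RPL3L and RPL10L, paralogs known from muscle and testis, had 6 and 3 reads in total. Another 6 members lay below 1000 normalized counts per kilobase of coding sequence: RPL36A (176), RPS10 (486), RPL7 (542), RPS26 (542), RPL17 (593) and RPL9 (998). They were picked out after their values were seen. The annotation names 133 pseudogenes after RPL21, 61 after RPL7, 52 after RPL36A and 50 after RPL17, but 87 after RPL23A, which stood at 8044 per kilobase. Across 86 members Spearman's rho of the level with the number of named pseudogenes was -0.21, a description over genes of the same libraries. The readthrough genes that overlap RPL17, RPS10 and RPL36A were listed at 0 in every library, and reads on more than 1 gene are counted on none. The tally of reads without a unique alignment was 0 in every library, so the table does not show how many reads of these members were lost, and the part of shared sequence in their levels was not tested.

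The share of reads on the members was steady with dose in 2 clones and not in the other. In untreated WT6 cells it was 4.99% (95% exact binomial interval 4.98% to 5.00%, counting error only). It was 5.05% and 4.71% with 1 and 2.5 ng/ml, 8.37% with 5 ng/ml (8.36% to 8.39%) and 6.92% with 25 ng/ml (6.91% to 6.93%). The share at 5 ng/ml was 1.68 times the untreated one and that at 25 ng/ml 1.39 times. In WT10 cells the 5 shares lay between 3.68% and 3.82%, and in MUT3 cells between 4.08% and 4.35%. The WT6 libraries at 5 and 25 ng/ml were thus high, and the ranges of the 3 clones did not overlap. Both subunits took part, from 2.96% to 4.98% of reads for the large subunit and from 2.03% to 3.39% for the small subunit between 0 and 5 ng/ml. A share of bulk RNA does not tell a change per cell from a change in the mixture of cells. The highest share coincided with neither the highest dose nor the highest RBM47 count. Reads tallied as on no counted feature made up 58.9% and 59.6% of all reads in the table for the WT6 libraries at 5 and 25 ng/ml. In the other 13 libraries they made up between 56.5% and 58.8%. The tally does not show where such reads lay, and whether it bears on the share was not tested.

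**Figure D1:**
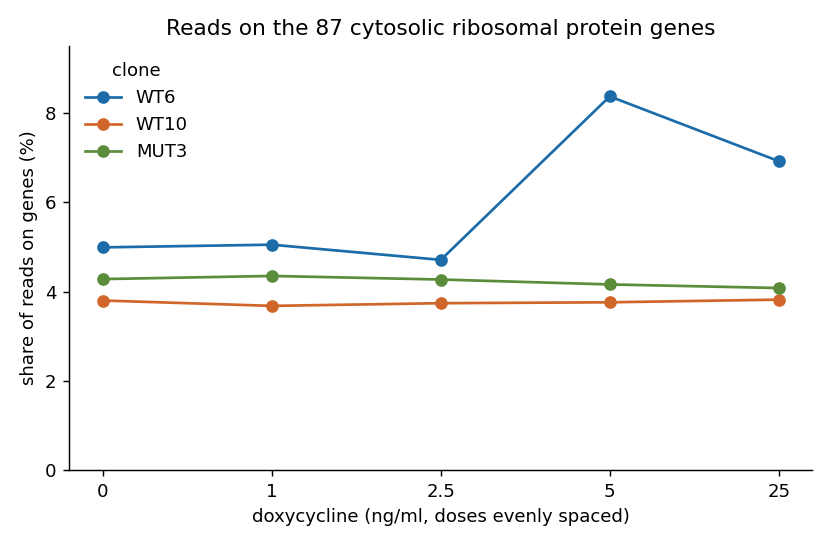
Percentage of the reads on genes that fell on the 87 ribosomal protein genes (vertical axis, from 0) at each doxycycline dose in ng/ml (horizontal axis, doses evenly spaced), with 1 point per library and 1 line per clone. WT6 stands at 8.37% and 6.92% at 5 and 25 ng/ml, whereas the WT10 and MUT3 libraries lie between 3.68% and 4.35%.

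In WT6 cells most ribosomal protein mRNAs were higher at the 2 top doses. The change with dose was tested with limma as 1 slope per clone on log2(dose + 1), in 1 fit over the 12644 genes with a mean of at least 10 normalized counts in each clone, on log2(normalized count + 1). By this test 61 of 82 members rose in WT6 cells and 1 fell (adjusted p under 0.05). Of all genes tested, 29.2% rose and 28.3% fell in WT6 cells. The median slope of the members was 0.16 log2 units per unit of log2(dose + 1), against 0.01 for all genes tested. The rise was not graded. The median log2 change of the members from the untreated library was -0.00 and -0.11 with 1 and 2.5 ng/ml, and 0.93 and 0.55 with 5 and 25 ng/ml. For 77 of 82 members the highest of the 5 WT6 values was that at 5 ng/ml, as it was for 22.5% of all genes tested. The same held for 52.5% of other genes with main transcripts under 1000 bases, and for 74.5% of those at the members' levels. It also held for 85.0% of the respiratory chain subunits and 74.7% of the mitochondrial ribosomal proteins tested. The calls rest on the WT6 libraries at 5 and 25 ng/ml: without both, 0 members rose or fell (1.03% and 0.411% of all genes) and the median slope was -0.06. They also depended on the setting: 1 member rose with each clone fitted alone (15.7% of all genes tested), 4 on linear dose (24.0%), 0 by Pearson's correlation with p under 0.01 (5.96%), 0 for any doxycycline against none (0%) and 0 on the log2 RBM47 count (0.0158%). Without the untreated WT6 library 28 members rose (24.5% of all genes), and without the one at 1 ng/ml 40 did (25.9%).

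The largest slopes in WT6 cells belonged to RPS28, RPS27A, RPS27L and RPL36AL. RPS28, a small subunit protein, had 349, 395 and 361 normalized counts at 0, 1 and 2.5 ng/ml, and 941 and 828 at 5 and 25 ng/ml. Both top doses lay above the other 3 libraries, and the slope was 0.31 with a standard error (SE) of 0.07 (adjusted p = 0.00158). RPS27A, which encodes a small subunit protein fused to ubiquitin, had 4528, 4596, 4274, 12210 and 8066 normalized counts in order of dose. Its value at 5 ng/ml was 2.70 times the untreated one (slope 0.24, SE 0.08, adjusted p = 0.0147). RPL36AL, a paralog of RPL36A, had 6124, 5795, 5994, 13378 and 10917 (slope 0.23, SE 0.06, adjusted p = 0.00384). FAU, the other fusion member, also rose, from 8064 to 16517 and 14381 at the top doses (slope 0.21, SE 0.06, adjusted p = 0.00454). Thus both fusion members rose, with a median slope of 0.23.

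The acidic stalk and the 5S particle were mixed. RPLP0, the base of the stalk that recruits translation factors, had 38387, 37661, 34228, 52109 and 42055 normalized counts, and its slope of 0.05 (SE 0.04) did not pass the test (adjusted p = 0.227). RPLP1 had 15831, 15602, 14067, 28517 and 19948 (slope 0.11, SE 0.06, adjusted p = 0.0959). RPLP2, its partner in the stalk dimers, had 14838, 15356, 13315, 31490 and 24074 and rose (slope 0.20, SE 0.06, adjusted p = 0.0167). All 3 were highest at 5 ng/ml, and 1 of 3 passed. Of the pair that carries 5S ribosomal RNA into the large subunit, RPL11 rose from 20142 to 40287 and 30283 at the top doses (slope 0.17, SE 0.06, adjusted p = 0.0191). RPL5 had 22160, 21874, 21238, 32960 and 23904, with a slope of 0.05 (SE 0.04, adjusted p = 0.295). RPSA, a small subunit protein also known as a laminin receptor, had 10084, 10189, 9227, 12338 and 10586 (slope 0.03, SE 0.03, adjusted p = 0.408).

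By subunit, 36 of 50 tested large subunit members rose and 1 fell, and 25 of 32 small subunit members rose and 0 fell. The shares of all genes tested that rose and fell were 29.2% and 28.3%. Of the 20 members that passed in neither direction, 15 had a slope above 0. The lowest slopes were those of RPL7L1, RPS10, RPL36A and RPL17. RPL7L1, a paralog of RPL7, was the member that fell: it had 3253, 3132, 3333, 1446 and 1692 normalized counts, so both top doses lay below the other libraries (slope -0.25, SE 0.06, adjusted p = 0.00284). RPS10 had 113, 138, 130, 138 and 83.5 normalized counts, RPL36A 39.5, 48.4, 44.3, 40.9 and 33.6, and RPL17 298, 332, 262, 319 and 260. Their values at the 2 top doses overlapped the rest, and none of the 3 passed the test. The 6 members with low levels per coding length changed by 0.05 to 0.30 log2 units at 5 ng/ml, beside the median of 0.93 over all members tested.

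**Figure D2:**
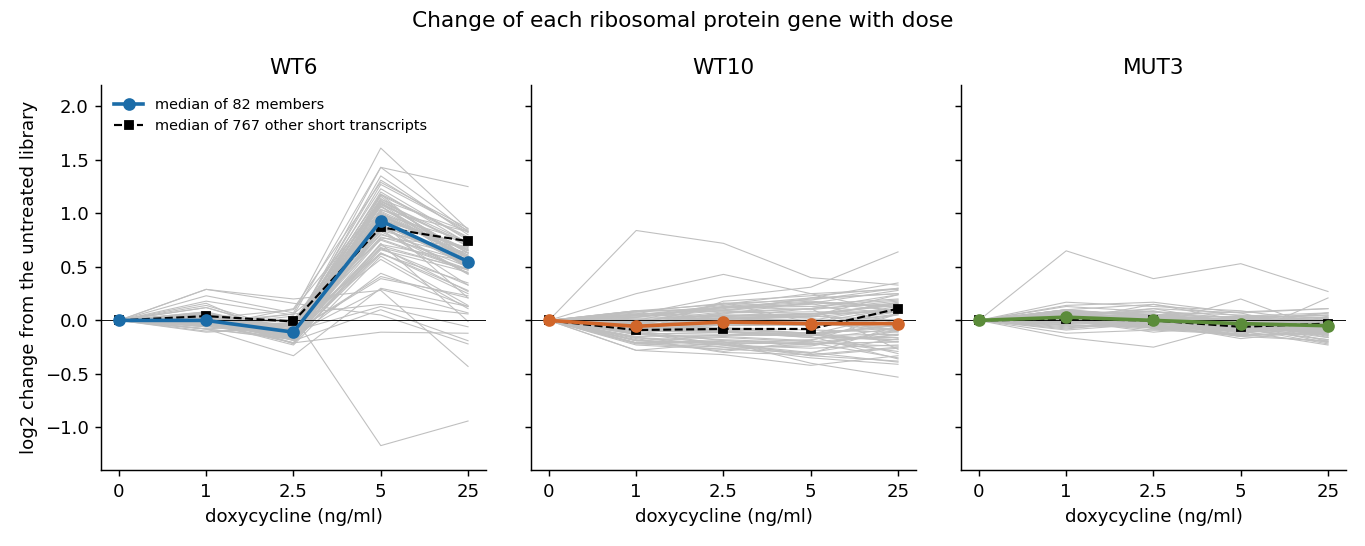
Log2 change of the normalized count (+ 1) from the untreated library of the same clone (vertical axis) at each dose in ng/ml (horizontal axis, evenly spaced), 1 grey line per tested member, with the median of the 82 members and of 767 other genes with main transcripts under 1000 bases. The member medians reach 0.93 and 0.55 in WT6 at 5 and 25 ng/ml, while the WT10 and MUT3 medians stay between -0.05 and 0.03; the line that falls in WT6 is RPL7L1.

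Other short transcripts moved in a like way in WT6 cells. Short was taken as a main transcript under 1000 bases, which held for 767 other genes tested. Their median change was 0.04 and -0.01 with 1 and 2.5 ng/ml, 0.87 with 5 ng/ml (quartiles 0.48 and 1.09) and 0.74 with 25 ng/ml. The members' quartiles at 5 ng/ml were 0.68 and 1.09. By the slope test 503 of the 767 (65.6%) rose and 30 fell, and of the 51 with a mean at or above the lower quartile of the members (4792 normalized counts) 48 (94.1%) rose and 0 fell. The medians of both groups were thus lower at 25 than at 5 ng/ml: 81 of 82 members were lower again at 25 ng/ml than at 5 ng/ml, as were 451 of the 767 other short transcripts and 6561 of the 12644 genes tested. These are descriptions with no test, since genes of the same libraries are not replicates.

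Within the family the change at 5 ng/ml ordered by coding length. The 30 members with coding sequences under 400 bases had a median change of 1.09, the 29 with 400 to 600 bases 0.95, and the 23 with 600 bases or more 0.63. Other genes had medians of 0.92 under 400 bases (510 genes), 0.58 from 400 to 600 bases (835 genes) and 0.26 from 600 to 1300 bases (3826 genes). Spearman's rho between the change at 5 ng/ml and coding length was -0.66 over the 82 members and -0.61 over all 11678 coding genes tested, values that share the same 2 libraries. RPL39, with 153 coding bases, had 356 normalized counts untreated and 1090 at 5 ng/ml, 3.06 times as many. RPL38 (210 bases) rose from 9049 to 22388 and RPS29 (168 bases) from 12926 to 33057. The order was loose: RPL41, the shortest with 75 bases, changed by 0.89 log2 units, and RPL39L, also with 153 bases, by 0.72. RPL3 (1209 bases), which lies at the peptidyl transferase center, had 21883 and 20313, and RPL4 (1281 bases) 23979 and 31441. Main transcript length followed the change less closely among members (rho -0.17), and the 46 members with main transcripts under 1000 bases and the 36 longer ones had medians of 0.94 and 0.93. The 59 members with the start tract described above had a median change of 0.94, and 45 of them rose. Of the 23 without it (median 0.84) 16 rose. The share rising was 29.2% for all genes tested and 65.6% for the other short transcripts.

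With each library corrected over all genes for its trends in transcript length and GC content, 16 members rose and 16 fell in WT6 cells, with a median slope of 0.02. Of all genes in that fit 27.0% rose and 31.5% fell. With coding length in place of transcript length, a setting chosen after seeing the data, 5 members rose and 8 fell, again with a median of 0.02, where 26.6% of all genes rose and 30.0% fell. Under both settings the share of members called was below that of all genes in either direction. Those that still rose were RPS27A (0.13), RPL15 (0.10, named because of this count), RPS28 (0.08), RPL36AL (0.08) and RPS27L (0.07). RPL7L1 still fell (-0.33, adjusted p = 0.00125), and RPS10, RPL39L, RPL41, RPL17, RPS26, RPL9 and RPL3 now fell as well. Their slopes were -0.21 to -0.07 log2 units per unit of log2(dose + 1). These falls are relative to the removed trend: before the removal RPL41 had a slope of 0.14 and RPL39L of 0.03. The removal takes out whatever goes with length in a library, whether of the cells or of the library.

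**Figure D3:**
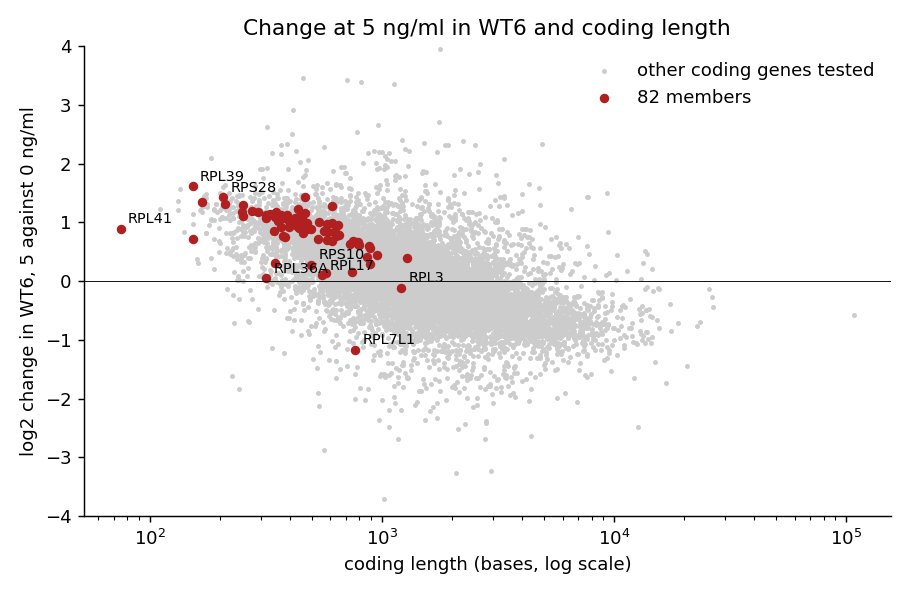
Log2 change of the normalized count (+ 1) in WT6 between 0 and 5 ng/ml (vertical axis) against coding length in bases (log scale) for 82 members (red) and 11596 other coding genes tested (grey, 4 of which lie beyond the axis). The members decline with coding length as the grey cloud does, but with scatter. RPL39 is the highest member at 1.61, RPL3 stands at -0.11 and RPL7L1 is the lowest at -1.17. The shortest member, RPL41 (75 bases), stands at 0.89 and the longest, RPL4 (1281 bases), at 0.39. Member medians were 1.09 under 400 bases, 0.95 from 400 to 600 and 0.63 from 600 bases. Those of other genes were 0.92, 0.58 and 0.26 (600 to 1300 bases).

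In WT10 cells the ribosomal protein genes were almost flat. Of 82 members 0 rose and 1 fell, where 10.2% of all genes tested rose and 9.83% fell, and the median slope was -0.00. Counted with an unadjusted p under 0.05, 4 members had a slope, and edgeR called 1. The member that fell was RPL3, with 20443, 18743, 18106, 17623 and 16062 normalized counts in order of dose. Each value lay below that of the dose before (slope -0.07, SE 0.02, adjusted p = 0.0371), but the call was lost without any 1 of the 5 WT10 libraries or of the 5 MUT3 libraries. The highest slopes were those of RPS27L, RPL23A, RPL39 and RPL26. RPS27L, known as a p53 target, had 806, 838, 939, 1003 and 1253 normalized counts (slope 0.14, SE 0.06, adjusted p = 0.131). RPL23A had 2186, 2029, 2476, 2572 and 2698, RPL39 410, 425, 452, 473 and 524, and RPL26 6697, 7094, 7467, 7616 and 8256. The lowest slopes besides were those of RPS10, with 314, 272, 273, 238 and 218 normalized counts, RPS2, with 14302, 12773, 12042, 11219 and 10766, RPL17, with 378, 338, 329, 301 and 289, and RPLP1, with 17905, 15438, 14862, 14557 and 13672. None of these 8 passed the test, although RPS27L, RPL39 and RPL26 were higher and RPS2, RPL17 and RPLP1 lower at each dose than at the one before. The spread shared by the 3 clones in this fit included the step in WT6 cells, and without the WT6 libraries at 5 and 25 ng/ml 25 members had a slope in WT10 cells, 13 upward and 12 downward, where 18.7% of all genes rose and 20.2% fell.

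MUT3 cells showed no call. Of 82 members 0 had a slope, as for all genes tested (0% called by limma, with 295 genes and 0 members at an unadjusted p under 0.05), and edgeR called 0 members. The median changes of the members in MUT3 cells were 0.03, -0.00, -0.03 and -0.05 at the rising doses. The wild type mean slope differed from that of MUT3 for 0 members (0 by edgeR, and 6 at an unadjusted p under 0.05), where 24.6% of all genes tested were called. Without the WT6 library at 5 ng/ml 36 members differed (38.9% of all genes), and without that at 25 ng/ml 15 did (27.0%). The WT10 slope differed from the MUT3 slope for 0 members (5.62% of all genes tested), with 0 at an unadjusted p under 0.05 and 0 by edgeR.

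The wild type clones were compared directly through the difference of their slopes. The WT6 slope was above the WT10 slope for 80 of 82 members, with a median difference of 0.15, but 5 passed the test (5 also by edgeR, with FAU in place of RPL7L1). It was higher for 4 members (7.28% of all genes tested) and lower for 1 (7.09%). RPS28 differed by 0.32 (SE 0.10, adjusted p = 0.0408), its WT10 counts being 697, 639, 595, 561 and 675. RPL29 had 10615, 10995, 9715, 21080 and 17708 in WT6 cells and 8994, 8331, 7698, 7757 and 7626 in WT10 cells (difference 0.25, SE 0.08, adjusted p = 0.0481). RPL13 had 18552, 18719, 16988, 31688 and 29869 in WT6 cells and 16823, 14976, 13672, 13457 and 14138 in WT10 cells (difference 0.23, SE 0.07, adjusted p = 0.0357). RPL10A had 13069, 13242, 12078, 22433 and 19095 in WT6 cells and 15902, 15258, 14957, 14678 and 12804 in WT10 cells (difference 0.22, SE 0.07, adjusted p = 0.0415). All 4 were highest in the untreated library in WT10 cells and at 5 ng/ml in WT6 cells. RPL7L1 differed the other way (-0.27, SE 0.08, adjusted p = 0.0471), with 2731, 2899, 3020, 3238 and 2866 in WT10 cells. The count varied with single libraries, with 55 members without the WT6 library at 5 ng/ml (29.4% of all genes), 14 without that at 2.5 ng/ml (20.9%), and 0 or 1 without any other single library.

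**Figure D4:**
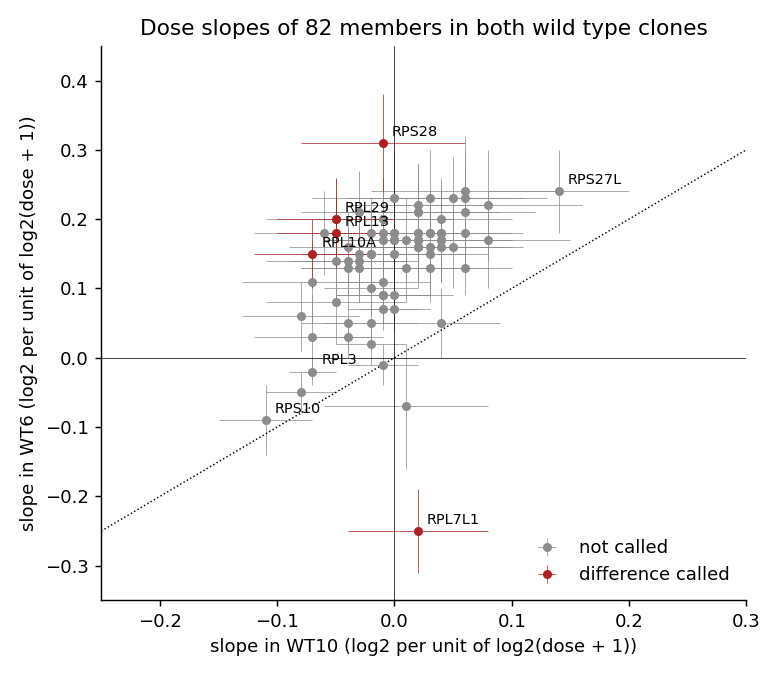
Dose slope in WT6 (vertical axis) against that in WT10 (horizontal axis), both in log2 units per unit of log2(dose + 1), for the 82 tested members, with bars of 1 standard error and the line of equal slopes dotted. Of the points 80 lie above the line; the 5 in red, RPS28, RPL29, RPL13, RPL10A and RPL7L1, are those whose slopes differed.

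For 4 of 6 pairs the ratio of the paralog to its partner was lower in every WT6 library than in the other clones. For RPL7L1 over RPL7 the gap was narrow, at most 6.94 against at least 7.02. Such separation was common for single genes: every WT6 library lay above the other clones for 18.3% of all genes tested and below for 17.7%. No such share was taken for ratios. Ratios were taken per kilobase of coding sequence in each library. RPL22L1 stood at 0.189 to 0.255 of RPL22 in WT6 cells, at 0.523 to 0.748 in WT10 cells and at 0.792 to 0.903 in MUT3 cells, and these ranges did not overlap. RPL22 had 4963, 4904, 5165, 8372 and 6857 normalized counts in WT6 cells, and between 2380 and 2974 in the other clones. RPL22L1 had 1074, 1071, 1081, 2033 and 1238 in WT6 cells, 1692, 1748, 1729, 1828 and 1406 in WT10 cells, and between 2127 and 2489 in MUT3 cells. Thus the partner was higher and the paralog lower in WT6 cells, except that at 5 ng/ml RPL22L1 in WT6 cells exceeded its WT10 values. The ratio of RPS27L to RPS27 was 1.32 to 1.64 in WT6 cells, 2.82 to 4.17 in WT10 cells and 2.55 to 3.36 in MUT3 cells. That of RPL26L1 to RPL26 was 0.0717 to 0.0823, 0.131 to 0.163 and 0.130 to 0.138. RPL7L1 over RPL7 fell within WT6 cells, from 6.94, 6.87 and 6.84 at the 3 lower doses to 2.78 and 3.46, and was 7.02 to 9.35 in the other clones. RPL39L over RPL39 went from 1.86 to 1.00 and 1.02 at the top doses in WT6 cells, and in WT10 cells from 2.17 untreated through 1.98, 1.84 and 1.70 to 1.32, while MUT3 cells had 1.36 to 1.74, so the clones overlapped. RPL36AL over RPL36A was 120 to 327 in WT6 cells, 58.1 to 103 in WT10 cells and 92.8 to 151 in MUT3 cells, where WT6 and MUT3 overlapped, with RPL36A at no more than 85.8 normalized counts. RPS27, RPL7, RPL39 and RPL36A are among the members with low counts for their family, so these ratios compare rows of the table and not amounts of protein. By slope 3 of the 6 tested L paralogs rose in WT6 cells and 1 fell, where 29.2% and 28.3% of all genes tested did, and 0 changed in the other clones.

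**Figure D5:**
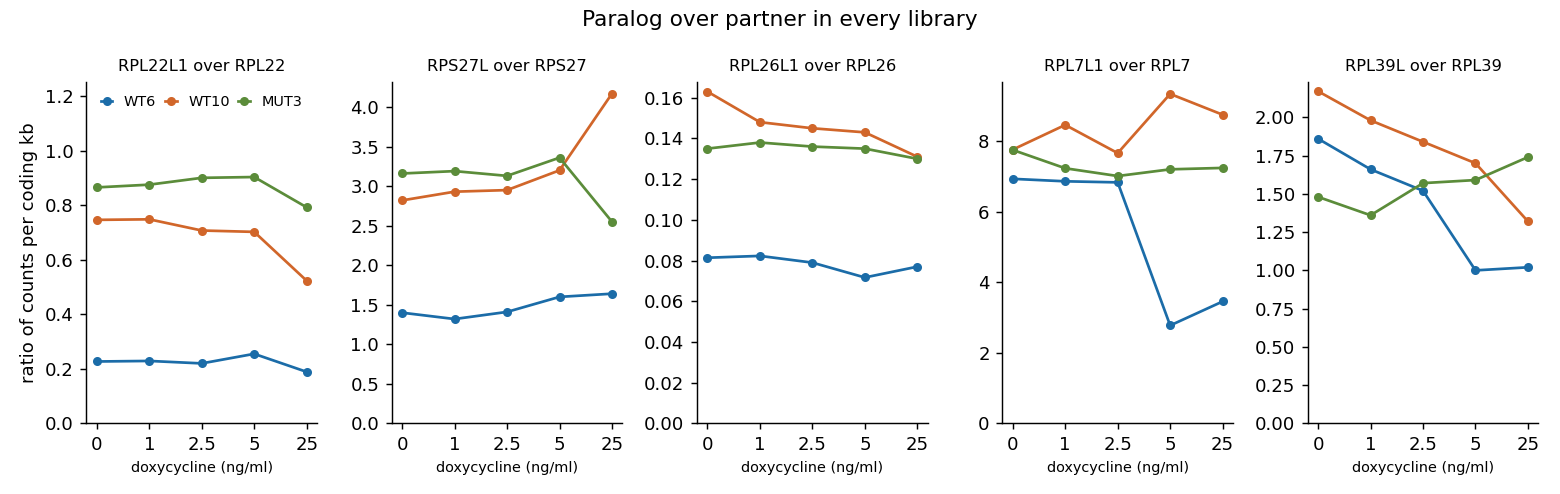
Ratio of the paralog to its partner in normalized counts per kilobase of coding sequence (vertical axes, each from 0 with its own scale) at each dose in ng/ml, 1 point per library, for 5 pairs. For RPL22L1, RPS27L and RPL26L1 the 5 WT6 points lie below all points of the other clones, and RPL7L1 over RPL7 drops to 2.78 and 3.46 in WT6 at the 2 top doses.

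The clones also differed in the level of the members. In the untreated libraries 60 of 82 members were highest in WT6 cells (42.7% of all genes tested) and 14 were lowest there (39.7%), and the median log2 difference of the members was 0.50 from WT10 and 0.32 from MUT3. Over all doses every WT6 library lay above every library of the other clones for 51 of 82 members, against 18.3% of all genes tested, and below them for 1 (17.7%). By limma 64 members had a higher mean level in WT6 cells than in the other clones and 11 a lower one, where 39.8% and 38.0% of all genes tested did. The median difference was 0.75, and 0.36 without the WT6 libraries at 5 and 25 ng/ml. With scaling to total reads the median of all genes moved from 0.02 to -0.15 and that of the members from 0.75 to 0.57. RPL12 of the large subunit, named after its values were seen, had 8626 to 17923 normalized counts in WT6 cells and 3064 to 4146 in the other clones (difference 1.66, SE 0.11, adjusted p = 9.66e-10). RPS10 was the member whose WT6 libraries all lay below the rest, at 83.5 to 138 against 218 to 356 (difference -1.32, SE 0.09, adjusted p = 1.63e-09). Among the 11 lower members were 5 of the 6 tested L paralogs, namely RPL22L1, RPS27L, RPL7L1, RPL26L1 and RPL39L, and RPL36AL was higher. The doses of a clone are not replicates, so the p-values here measure the spread of libraries around the dose lines, not that between clones.

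Between WT10 and MUT3 cells, 24 members were lower in WT10 cells and 2 higher, where 25.3% and 23.0% of all genes tested were, and the median difference was -0.24, against -0.02 for all genes. Every WT10 library lay below every MUT3 library for 46 of 82 members (20.4% of all genes tested) and above for 4 (16.6%). RPL37A, of the large subunit, had 8799, 8204, 8579, 8530 and 9200 normalized counts in WT10 cells and 13746, 15511, 15063, 14623 and 13546 in MUT3 cells (difference -0.74, SE 0.15, adjusted p = 0.000668). RPS13, of the small subunit, had 5973 to 6868 in WT10 cells and 9793 to 10975 in MUT3 cells (-0.73, SE 0.13, adjusted p = 0.000245). RPL27A (-0.54, adjusted p = 0.00477) and RPL9 (-0.54, adjusted p = 1.00e-05) followed, also without overlap. Going the other way, RPLP1 had 13672 to 17905 in WT10 cells and 10756 to 11833 in MUT3 cells (0.43, SE 0.13, adjusted p = 0.0101). RPL4 had 22159 to 23177 and 18024 to 18467 (0.32, SE 0.07, adjusted p = 0.00148). RPS7 (0.24, adjusted p = 0.122) and RPL37 (0.21, adjusted p = 0.223) did not pass the test, although their libraries did not overlap. The number of lower members was 62 without the WT6 library at 5 ng/ml (31.0% of all genes) and 14 without the WT10 library at 25 ng/ml (21.7%). The clones stem from single cells, so a difference between 2 clones cannot be told apart from a difference between transgenes. The p-values of these levels measure the spread of libraries around the dose lines, not that between clones.

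Other genes of translation did not all follow. Of all genes tested 29.2% rose and 28.3% fell in WT6 cells, and 10.2% rose and 9.83% fell in WT10 cells. Of 20 translation factors and partners known as TOP mRNAs, of which 17 began with the tract (85.0%), 5 rose and 5 fell in WT6 cells, with a median slope of 0.02 and a median change of 0.40 at 5 ng/ml. EEF1A1, which brings aminoacyl-tRNA to the ribosome, did not pass (slope 0.01, SE 0.02, adjusted p = 0.617), PABPC1, the poly(A)-binding protein, fell (-0.14, SE 0.02, adjusted p = 9.69e-05) and GNB2L1, a small subunit scaffold, rose (0.09, SE 0.03, adjusted p = 0.0474). NPM1 had a slope of -0.02 (adjusted p = 0.781). Their median coding length was 1323 bases and that of the members 448.5 bases. Of 30 ribosome biogenesis factors 4 rose and 13 fell in WT6 cells, and 0 rose and 10 fell in WT10 cells. Among them nucleolin (NCL) fell in both (-0.21, adjusted p = 1.86e-05, and -0.12, adjusted p = 0.00431), as did NOLC1 (-0.13, adjusted p = 0.000332, and -0.08, adjusted p = 0.0207). Of 75 mitochondrial ribosomal proteins, which translate in another compartment and of which 5 began with the tract, 58 rose and 1 fell in WT6 cells (median change 0.73 at 5 ng/ml). Of 60 subunits of the respiratory chain 55 rose and 1 fell, with a median change of 1.06. COX7C rose by 1.22 log2 units at 5 ng/ml and COX4I1 by 0.96. Of 20 histone genes tested 6 rose (30.0%) and 4 fell in WT6 cells. The rises of the histone genes and of the translation factors (25.0%) thus lay near the share of all genes. In MUT3 cells 0 genes of these lists had a slope, as 0 of all genes did, and in WT10 cells 1 TOP factor fell, 2 mitochondrial ribosomal proteins rose and 2 fell, 2 respiratory chain subunits rose, and 2 histone genes rose and 1 fell.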

How the data were processed

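The authors mapped paired-end reads of polyA-selected RNA to hg19 with STAR, counted reads per gene with HTSeq 0.5.4 (version per the submitters' processing notes) at default settings and normalized to library size with DESeq. The deposited table holds 15 columns of this normalized signal for 23368 genes and 5 tallies, and dividing each column by its smallest value gave whole reads for 100% of the values (within 0.01 reads). Gene annotation of the counting is not given in the sources used here. Groups came from the sample labels. The fit used limma 3.58.1 in R 4.3.3 on log2(normalized count + 1) with vooma precision weights, 6 coefficients (a level and a slope on log2(dose + 1) per clone), 9 residual degrees of freedom, and Benjamini-Hochberg adjustment over 12644 genes with a mean of at least 10 in each clone. The scripts were tested on simulated data. edgeR 4.0.16 on the whole reads was an alternative and called 7113 genes for WT6, 2489 for WT10 and 1 for MUT3. Trends were removed by splines with 4 degrees of freedom. Transcripts, lengths and starts came from GENCODE 44 on hg19, which matched 91.8% of the genes and 86 of 87 members. Named members were the 4 highest and 4 lowest slopes of each wild type clone, all called falls, differences between wild type clones and MUT3 slopes, the 4 largest level differences each way between WT10 and MUT3, the 5 highest per kilobase, the L paralogs with partners, the stalk, RPL5, RPL11, RPSA, FAU, RPS27A and untested members, apart from some whose results are not reported here. From the other lists at most the 4 genes with the highest mean count were named. The members and lists were chosen with earlier results of these data known.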

Additional observations from a re-analysis of the deposited data

Results flagged for a closer look

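A test of the difference between the dose slopes in WT6 and WT10 cells called 5 of 82 members. The slope was called higher in WT6 cells for 4.88% of the members and 7.28% of all genes tested, and lower for 1.22% and 7.09%. Without the WT6 library at 2.5 ng/ml 14 members were called and without that at 5 ng/ml 55, but leaving out any other single library left 0 or 1. The WT6 slope exceeded the WT10 slope by 0.32 log2 units per unit of log2(dose + 1) for RPS28, by 0.25 for RPL29, by 0.23 for RPL13 and by 0.22 for RPL10A. For RPL7L1 the difference was -0.27. The adjusted p-values (limma) lay between 0.0357 and 0.0481. The clones differ in parental line by the study's methods, so line and clone cannot be told apart as sources of a difference in slope. No group held the 4 samples needed to look for single libraries far from their group.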

How the results depend on the processing

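Of 500 values recomputed under alternatives, 387 kept their direction and stayed near the reported value. The number of members rising in WT6 cells was between 28 and 68 when single libraries were left out. It was 36 without the 25 ng/ml libraries (19.1% of all genes), 16 with length and GC trends removed (27.0%) and 5 with coding length in that removal (26.6%). On linear dose 4 rose (24.0%) and with each clone fitted alone 1 (15.7%). The number was 0 for any doxycycline against none (0%), for the log2 RBM47 count (0.0158%), for Pearson's correlation with p under 0.01 (5.96%), and without the WT6 libraries at 5 and 25 ng/ml (1.03%). The number falling in WT6 cells was 16 and 8 with the removals (31.5% and 30.0% of all genes) and 2 on linear dose (23.4%). It was 0 in the last 4 settings, and 1 or 2 with single libraries left out. The median slope in WT6 cells was 0.02 under both removals, 0.29 without 25 ng/ml and -0.06 without both top WT6 libraries, where it reversed, and 0.13 to 0.29 with single libraries left out.

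The number of members with a slope in WT10 cells was 25 without the top WT6 libraries (38.9% of all genes) and 18 and 11 with the removals (36.0% and 34.2%). It was 13 with each clone alone (28.4%) and 6 by Pearson's correlation (13.3%). It was 0 with total reads (18.7%), upper quartile (19.8%), linear dose (15.4%), any doxycycline (0%), the RBM47 count (0.704%) and without 25 ng/ml (0.134%). With single libraries left out it was 0 to 11. In MUT3 cells it was 3 with each clone alone (1.39% of all genes) and 5 by Pearson's correlation. For the wild type mean against MUT3 it was 14 and 4 with the removals, 3 without the top WT6 libraries, 1 with total reads, upper quartile or dose as rank, and 0 to 36 with single libraries left out. For WT6 against WT10 it was 14 with dose as rank, 3 with no filter, 2 and 3 with the removals, 0 with no precision weights, linear dose, any doxycycline, the RBM47 count, without 25 ng/ml or without the top WT6 libraries, and 0 to 55 with single libraries left out. For WT10 against MUT3 it was 21 without the top WT6 libraries, 5 and 2 with the removals, and 0 to 3. Under the main setting 24.6% of all genes tested differed for the wild type mean against MUT3, and 5.62% for WT10 against MUT3. For WT6 against WT10 the slope was higher for 7.28% of all genes and lower for 7.09%. Where no share of all genes stands beside a count, the count is not read as a result about the members.

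The number of members lower in WT10 than MUT3 was 57 and 62 with the removals (4047 and 3935 of all genes) and 69 without the top WT6 libraries (4226). It was 13 with any doxycycline (1896), 12 without 25 ng/ml (2523), and 14 to 62 with single libraries left out. The number higher was 4 with the coding removal and without the top WT6 libraries (3269 and 3634 of all genes), 1 without 25 ng/ml (2243), and 1 to 4. The number lower in WT6 than the other clones was 7 on linear dose (4707 of all genes), 6 with any doxycycline (4179), 4 without 25 ng/ml (4510) and 5 to 12. The median of the members for WT6 against the others was 0.57 with total reads, 0.89 without 25 ng/ml, 0.36 without the top WT6 libraries and 0.60 to 0.88. The cause of these shifts was not tested, except that fewer libraries or degrees of freedom enter by construction. The removals leave the mean level of each clone in place by construction. The member median of WT10 minus MUT3 stayed at -0.24 under both, so the counts with the removals are no check of that difference. With total reads the share of rising calls among all genes in WT10 cells went from 50.8% to 65.4%, and that of higher calls in WT6 cells against the others from 51.2% to 38.4%. The table has 0 mitochondrially encoded genes, so the shares did not change without them. With 1 library per clone and dose and no replicates, the labels share no replicate numbers and no paired analysis was possible because no group has a second library. Depth limits the members with few reads, such as RPL36A.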

Other observations

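The table lists 28 ribosomal protein pseudogenes, and 12 of them passed the filter. In WT6 cells 4 of them rose (33.3%, against 29.2% of all genes tested) and 1 fell. In WT10 cells 1 rose (8.33%, against 10.2%) and 1 fell, and in MUT3 cells 0 changed. RPL13AP20 had 444, 502, 886, 1467 and 2272 normalized counts in WT6 cells in order of dose (slope 0.54, SE 0.05, adjusted p = 3.53e-06 by limma) and 82.2, 103, 96.7, 126 and 338 in WT10 cells (slope 0.47, SE 0.08, adjusted p = 0.000825). In MUT3 cells it lay between 56.6 and 78.8. Its highest value in either wild type clone was the one at 25 ng/ml. RPSAP58 held 159447 reads over the 15 libraries, more than the 105296 of RPSA, and had 14889, 14478, 13497, 21275 and 17460 normalized counts in WT6 cells (slope 0.08, SE 0.04, adjusted p = 0.0944). How reads of near-identical copies were divided between such rows cannot be seen in the table.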
